A study of Rattus norvegicus with 18 samples.

Results

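The genes described here make, lengthen, desaturate, carry and burn fatty acids. The set was a fixed list of 37 gene symbols, matched to array probe sets annotated with exactly 1 symbol, and 33 of the 37 could be tested among 11982 genes in all. They were measured in O4+ cells and A2B5+ cells that flow cytometry had sorted out of dissociated whole brain, from male rat pups aged 7 postnatal days. O4+ cells had 4 biological replicates and A2B5+ cells had 5, each prepared from a litter of 10 pups according to the series' design text, so every value averages the cells of pooled animals. Each replicate was run on both array types of the study, here array A and array B. No transgene or treatment is named in the labels, and the sources used here give no rat strain. For array B the source label says only whole brain, and the population was taken from the sample titles.

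The O4 antibody binds sulfatide and similar lipids on late oligodendrocyte progenitors and oligodendrocytes. The A2B5 antibody binds gangliosides on glial progenitors and some neurons. Oligodendrocytes wrap axons in myelin, a membrane that is mostly lipid. Its galactolipids carry very long saturated and monounsaturated acyl chains. Fatty acid synthesis joins acetyl-CoA units, exported from mitochondria as citrate or made from acetate, into palmitate. Elongases, dehydratases and reductases of the endoplasmic reticulum then lengthen the chain, and desaturases insert double bonds. Mitochondrial beta-oxidation shortens acyl chains again to acetyl-CoA after carnitine-dependent import.

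The deposited values are linear ratios that lie around 1 for each probe set, so they compare arrays within a gene and give no level that could be set against another gene. For a gene with several probe sets the ratio below is the geometric mean. Differences are O4+ minus A2B5+ on the log2 scale with the standard error of a limma fit across all genes (n = 4 and 5), and a gene was called at a Benjamini-Hochberg adjusted p under 0.05. Array A medians over tested probe sets were 0.17 (log2) higher in O4+ than in A2B5+ arrays, so calls are also given with each array centred on its median. Of 11 tested oligodendrocyte markers all 11 were higher in O4+ cells, with a median difference of 5.17. All 8 cell cycle markers were lower, as were 9 of 10 markers of microglia, 8 of 10 of endothelial and mural cells and 6 of 10 of astrocytes and radial glia. Among oligodendrocyte progenitor markers 2 of 6, Olig1 and Vcan, were higher and 4 were lower. Among neuron and neuroblast markers 4 of 11 were higher and 6 lower, and of 4 ependymal markers 2 were lower. Beside these marker counts, 28.8% of all genes were called higher and 17.8% lower. After centring 2 of 11 neuron and neuroblast markers were higher and 6 lower, against 18.7% and 20.4% of all genes. Gad2 and Nefm were then no longer called. In such sorted bulk RNA a different share of cells of a type and a different amount of RNA per cell cannot be told apart.

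Among the 33 tested genes of fatty acid metabolism, 15 had higher and 2 had lower expression in O4+ cells, against 28.8% of all genes called higher and 17.8% called lower. The largest differences were those of the elongation enzymes Elovl6, Elovl1 and Hacd1, the acetyl-CoA synthetase Acss2 and the synthase Fasn, at 2.93, 2.84, 2.12, 2.87 and 1.88 (log2), followed by the oxidation enzyme Echs1 at 1.80. Most desaturases were not called. Beta-oxidation enzymes were split, with 5 of 9 called higher and 4 of 9 not called. The lipid-releasing enzyme Lpl was lower. With centred arrays the counts over the 33 genes were 12 higher and 4 lower, against 18.7% and 20.4% of all genes. Populations were separate on all arrays, with no overlap of ratios, for 14 genes higher and 1 gene lower in O4+ cells, against 27.6% and 13.5% of all genes. Leaving out probe sets at the low-ratio pattern, explained with the regulators, gave 14 higher and 2 lower of 32, against 27.8% and 18.6% of all genes. The 33 had passed a filter that keeps probe sets with a ratio of at least 1 on at least 4 of 9 arrays.

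**Figure D1:**
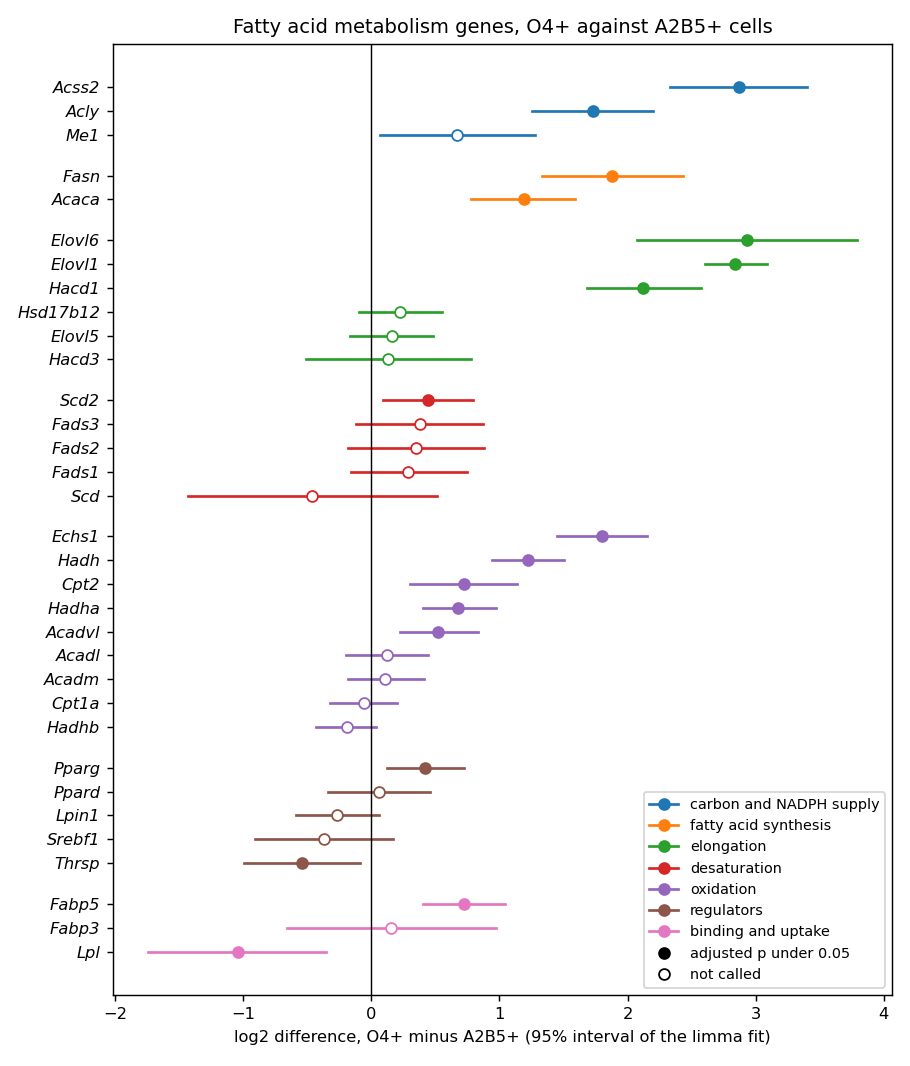
Log2 difference, O4+ minus A2B5+, for the 33 tested genes, grouped by role from top to bottom, with points at the fitted value and bars for the 95% interval of the limma fit (n = 4 and 5). Filled points passed an adjusted p under 0.05; Elovl6, Acss2 and Elovl1 lie farthest to the right at 2.93, 2.87 and 2.84, and Lpl farthest to the left at -1.04.

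Both enzymes that feed cytosolic acetyl-CoA rose in O4+ cells. Acss2, which makes acetyl-CoA from acetate, had ratios of 6.03, 4.64, 4.26 and 5.81 in O4+ replicates 1 to 4, against 0.699, 0.626, 0.909, 1.00 and 0.435 in A2B5+ replicates 1 to 5. Every O4+ array lay far above every A2B5+ array, a 7.29-fold difference (log2 2.87 ± 0.24, adjusted p = 1.7e-05). Acly, which cleaves exported citrate into acetyl-CoA, had ratios of 3.03, 2.09, 1.97 and 2.95 in O4+ cells, against 1.00, 0.756, 0.761, 0.783 and 0.509 in A2B5+ cells. The groups again did not overlap, and the difference was 3.31-fold (log2 1.73 ± 0.21, adjusted p = 1.7e-04). The log2 gap between Acss2 and Acly within an array was 1.06 ± 0.09 (SD, n = 4) in O4+ cells and -0.08 ± 0.37 (SD, n = 5) in A2B5+ cells. A shift common to a whole array cancels in such a gap, but a difference in scale between probe sets does not. In all 8 gene pairs were compared in this way, each chosen after the values were seen and without a test. The gap between the desaturases Scd2 and Scd overlapped, at -0.46 to 0.55 in O4+ cells and -1.81 to 0.17 in A2B5+ cells. For the other pairs the populations did not overlap.

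Me1, a malic enzyme that yields NADPH for lipid synthesis, was uneven among O4+ arrays. Its ratios were 2.13, 1.18, 0.891 and 1.93 in O4+ cells, against 1.25, 0.819, 0.984, 0.737 and 0.811 in A2B5+ cells. O4+ replicates 1 and 4 lay above all A2B5+ arrays, and O4+ replicates 2 and 3 lay among them. The difference of 0.67 ± 0.27 (log2) was not called (adjusted p = 0.064), but it was 0.91 without O4+ replicate 3 and 0.79 without A2B5+ replicate 1, and called in both cases (adjusted p = 0.018 and 0.046). With array weights it was 0.96 and called (adjusted p = 0.0098). Of its 2 probe sets one was higher by 0.93 ± 0.33 and the other differed by 0.42 ± 0.22 without a call, where 32.5% of tested array A probe sets were called higher and 14.7% lower.

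Fasn and Acaca, the tested genes of palmitate synthesis itself, both rose in O4+ cells. Fasn, the synthase that assembles palmitate, had ratios of 2.90, 2.24, 2.89 and 2.70 in O4+ cells, against 0.742, 0.672, 0.983, 0.984 and 0.413 in A2B5+ cells. All O4+ values were higher than all A2B5+ values, with a 3.68-fold difference (log2 1.88 ± 0.25, adjusted p = 2.5e-04), and both of its probe sets were called (2.19 ± 0.31 and 1.58 ± 0.20). Acaca, the acetyl-CoA carboxylase that makes malonyl-CoA for the synthase, had ratios of 2.10, 1.48, 2.13 and 2.14 in O4+ cells, against 0.985, 0.750, 0.955, 1.00 and 0.636 in A2B5+ cells. It was 2.27-fold higher (log2 1.19 ± 0.18, adjusted p = 6.4e-04) without overlap. Another Acaca probe set lay below the filter with ratios from 0.360 to 0.486. The single probe set of Acacb, the carboxylase isoform whose malonyl-CoA restrains mitochondrial import, also lay below the filter, at ratios from 0.532 to 0.799, and was not tested.

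Among elongation enzymes 3 of 6 tested rose and 3 were not called, against 28.8% of all genes called higher. Elovl1, an elongase of very long saturated and monounsaturated chains, had ratios of 7.44, 7.24, 6.20 and 6.55 in O4+ cells, against 0.859, 0.999, 1.00, 0.946 and 0.974 in A2B5+ cells. Both groups were tight and far apart, with log2 means of 2.77 ± 0.12 (SD, n = 4) and -0.07 ± 0.09 (SD, n = 5) and a fitted difference of 2.84 ± 0.11 (adjusted p = 2.2e-07). Elovl6, which extends palmitate to stearate, was as high but more variable, with ratios of 7.12, 2.48, 5.85 and 6.16 in O4+ cells, against 0.959, 0.481, 1.00, 0.754 and 0.355 in A2B5+ cells. O4+ replicate 2 was the lowest of its group and still above every A2B5+ array (log2 2.93 ± 0.39, adjusted p = 2.6e-04). A separate Elovl6 probe set on array B gave 2.91 ± 0.42 and was called, as were 9.93% of tested array B probe sets in the higher and 13.8% in the lower direction. Its ratios ran from 2.21 to 5.34 in O4+ cells and from 0.267 to 1.00 in A2B5+ cells.

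Hacd1, a dehydratase of the elongation cycle, was measured on array B alone. Its ratios were 3.48, 3.72, 3.39 and 2.31 in O4+ cells, against 1.00, 0.822, 0.671, 0.624 and 0.591 in A2B5+ cells, a 4.36-fold rise without overlap (log2 2.12 ± 0.20, adjusted p = 3.3e-05). Its paralogue Hacd3 did not follow, with O4+ ratios from 0.898 to 1.45 inside the A2B5+ range of 0.575 to 1.55 (difference 0.13, 95% interval -0.51 to 0.78). Hsd17b12, the ketoacyl reductase of the cycle, differed by 0.22 (95% interval -0.10 to 0.55). Elovl5, an elongase of polyunsaturated chains, differed by 0.16 (95% interval -0.17 to 0.48), with O4+ ratios from 0.968 to 1.35 and A2B5+ ratios from 0.891 to 1.16. A lower Elovl5 probe set that missed the filter had ratios from 0.362 to 0.670, and Elovl5 was called at 0.38 when no filter was used. Within each array the log2 gap between Elovl1 and Elovl5 ran from 2.27 to 2.86 in O4+ cells and from -0.29 to 0.17 in A2B5+ cells, and that between Elovl6 and Elovl5 from 1.31 to 2.59 and from -1.39 to 0.00. Elovl7 had no probe set with 1 symbol, and the probe set for Tecr, the last reductase of the cycle, was annotated with a second symbol, so neither was analysed here.

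**Figure D2:**
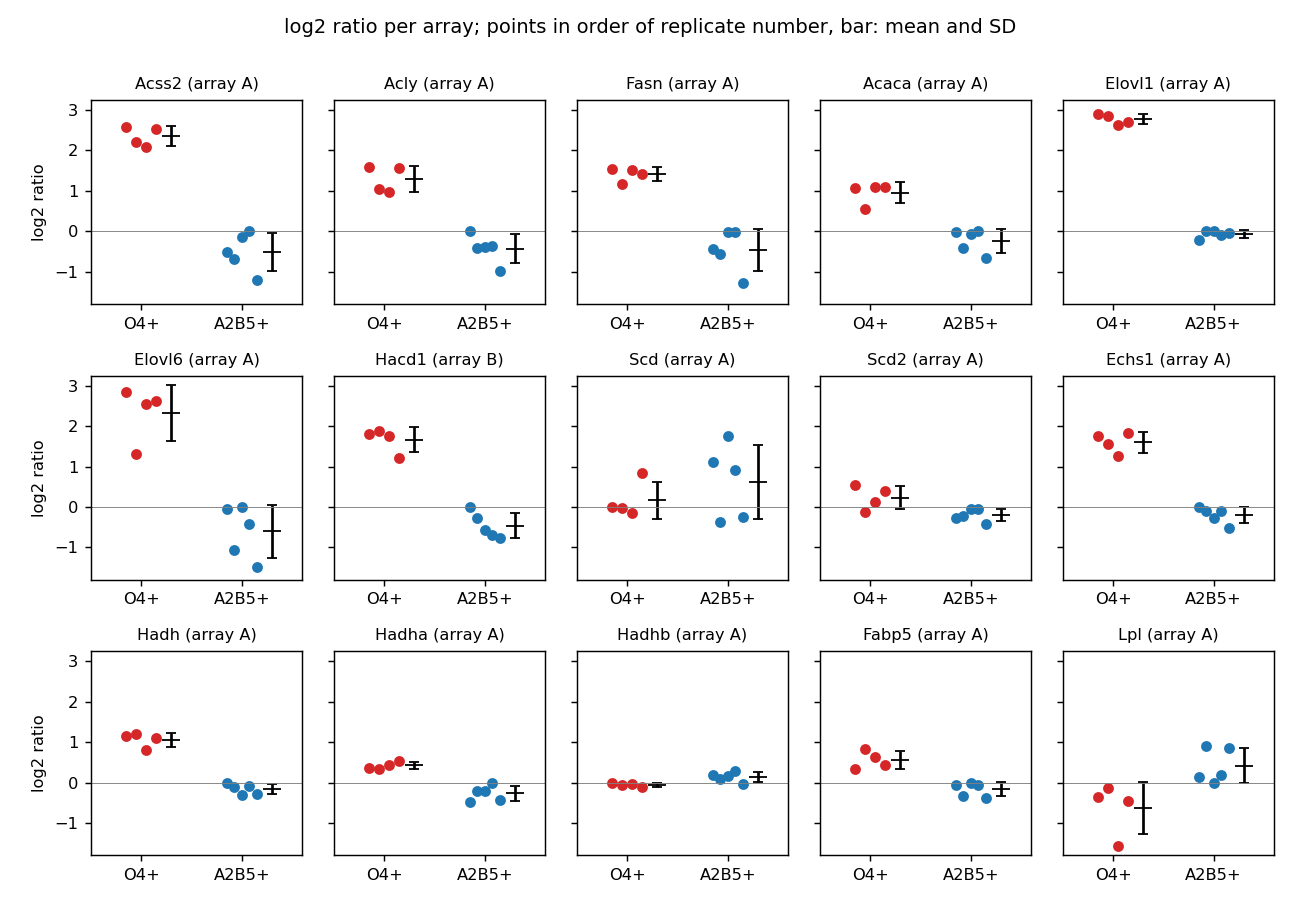
Log2 ratio of 15 genes on each array, with O4+ arrays (red, n = 4) left of A2B5+ arrays (blue, n = 5), points in order of replicate number and black bars for the mean and SD. Acss2, Acly, Fasn, Acaca, Elovl1, Elovl6, Hacd1, Echs1, Hadh, Hadha and Fabp5 have no O4+ point at or below an A2B5+ point, Lpl shows the reverse, and Scd, Scd2 and Hadhb overlap.

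Desaturases showed little difference beyond replicate spread. Scd, a desaturase that makes oleate from stearate, had ratios of 1.00, 0.988, 0.893 and 1.81 in O4+ cells, against 2.15, 0.770, 3.36, 1.88 and 0.840 in A2B5+ cells. A2B5+ replicates 1, 3 and 4 lay above all O4+ arrays and replicates 2 and 5 below all of them, and the difference of -0.46 had a 95% interval of -1.43 to 0.51 (adjusted p = 0.41). Scd2, the form abundant in brain, had ratios of 1.46, 0.922, 1.08 and 1.31 in O4+ cells, against 0.831, 0.865, 0.956, 0.965 and 0.746 in A2B5+ cells. O4+ replicate 2 lay inside the A2B5+ range. The call (0.44 ± 0.16, adjusted p = 0.043) ended after centring (0.27, adjusted p = 0.23) and in 8 of the 9 fits that left out a replicate. In these 9 fits the adjusted p ran from 0.014, without O4+ replicate 2, to 0.12, without O4+ replicate 1.

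The Scd2 probe sets differed in detail. On array A, one was higher by 0.48 ± 0.14 and another differed by 0.39 ± 0.30 without a call. The remaining one missed the filter, with ratios of 2.05, 0.532, 0.526 and 1.51 in O4+ replicates 1 to 4 and 0.384 to 0.473 in A2B5+ cells. O4+ replicates 1 and 4 were thus the high ones, as they were for Me1 and Acly. A probe set on array B differed by 0.70 ± 0.26 without a call. Scd and Scd2 are closely related copies, and how far a probe set for one reads transcripts of the other was not tested.

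Fads1 and Fads2, which make long polyunsaturated chains, differed by 0.29 (95% interval -0.16 to 0.75) and 0.35 (95% interval -0.18 to 0.88). Their O4+ ratios were narrow, at 0.853 to 1.04 for Fads1 and 1.00 to 1.20 for Fads2. The A2B5+ ratios were wider, at 0.597 to 1.10 and 0.593 to 1.52, with replicate 3 the highest for both. Fads3 differed by 0.38 (95% interval -0.12 to 0.87). Fads2 was called at 0.55 without A2B5+ replicate 3 (adjusted p = 0.029), and Fads3 at 0.61 with array weights (adjusted p = 0.025).

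Of 9 beta-oxidation genes 5 rose and 4 were not called, against 28.8% of all genes called higher. Echs1, the short-chain enoyl-CoA hydratase, which also serves valine breakdown, had ratios of 3.36, 2.94, 2.38 and 3.53 in O4+ cells, against 1.00, 0.925, 0.824, 0.926 and 0.695 in A2B5+ cells. All O4+ arrays lay far above all A2B5+ arrays, and the rise was 3.48-fold (log2 1.80 ± 0.16, adjusted p = 2.2e-05). Hadh, the dehydrogenase of the following step for shorter chains, had ratios of 2.21, 2.27, 1.75 and 2.16 in O4+ cells, against 1.00, 0.924, 0.808, 0.949 and 0.826 in A2B5+ cells (log2 1.22 ± 0.13, adjusted p = 6.2e-05). Both genes stayed apart between groups on every array. Another Hadh probe set lay below the filter with ratios from 0.281 to 0.402, and Hadh was called at 0.76 (log2) when no filter was used.

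The genes of long-chain entry and first oxidation moved less. Cpt2, the inner membrane carnitine palmitoyltransferase, had ratios of 1.18, 1.48, 1.49 and 1.20 in O4+ cells, against 0.733, 1.00, 0.867, 0.962 and 0.552 in A2B5+ cells (log2 0.72 ± 0.19, adjusted p = 0.012). Acadvl, the dehydrogenase of very long chains, had ratios of 1.23, 1.35, 1.09 and 1.41 in O4+ cells, against 0.709, 0.940, 0.896, 1.00 and 0.891 in A2B5+ cells. It rose by 0.52 ± 0.14 (adjusted p = 0.012) without overlap, but the call ended after centring (0.35, adjusted p = 0.055). Acadm and Acadl, the dehydrogenases of medium and long chains, differed by 0.11 (95% interval -0.18 to 0.41) and 0.12 (95% interval -0.20 to 0.44), and both differences were below 0 after centring.

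Cpt1a, the outer membrane transferase that gates import, had a difference of -0.06 (95% interval -0.32 to 0.20), but its 2 probe sets ran opposite ways. The probe set away from the low-ratio pattern had ratios of 0.651, 1.01, 0.970 and 0.699 in O4+ cells, against 0.968 to 1.13 in A2B5+ cells, a difference of -0.38 ± 0.16 that was not called (adjusted p = 0.074). The other differed by 0.26 ± 0.12, and its course over the arrays followed the low-ratio pattern, described with the regulators.

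The 2 subunits of the mitochondrial trifunctional protein, which acts on long chains, did not move alike. Hadha, the alpha subunit, had ratios of 1.29, 1.27, 1.35 and 1.45 in O4+ cells, against 0.720, 0.867, 0.863, 1.00 and 0.748 in A2B5+ cells, and rose by 0.68 ± 0.13 (log2, adjusted p = 0.0020). Hadhb, the beta subunit, had ratios of 1.00, 0.968, 0.973 and 0.920 in O4+ cells, against 1.13, 1.07, 1.13, 1.21 and 0.980 in A2B5+ cells, with a difference of -0.19 ± 0.11 (adjusted p = 0.16) and overlap through A2B5+ replicate 5. After centring Hadhb was called lower (-0.36, adjusted p = 0.022). Within each array the log2 gap between Hadha and Hadhb ran from 0.37 to 0.66 in O4+ cells and from -0.65 to -0.28 in A2B5+ cells. A Hadha probe set on array B differed by only 0.16 ± 0.10 without a call.

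Set side by side, synthesis and oxidation had close medians as lists, but not under every setting. Of 16 tested genes of acetyl-CoA and NADPH supply, synthesis, elongation and desaturation, 8 were higher and 0 lower, with a median difference of 0.56. Of the 9 oxidation genes 5 were higher and 0 lower, with a median of 0.52, beside a median of 0.14 over all genes tested. Of all genes 28.8% were called higher and 17.8% lower. The ranges differed more than the medians, from -0.46 to 2.93 for synthesis and from -0.19 to 1.80 for oxidation. After centring the medians were 0.39 and 0.35, beside 0.03 over all genes. The counts were then 7 of 16 higher and 0 lower in synthesis, and 4 of 9 higher and 1 lower in oxidation, against 18.7% and 20.4% of all genes. Array weights gave medians of 0.79 and 0.47, with 10 of 16 and 5 of 9 higher. They also raised the calls over all 11982 genes, to 3910 higher and 2477 lower. Averaging probe sets of both array types gave medians of 0.60 and 0.42. Over the 15 synthesis genes of array A, the mean log2 ratio was 1.02, 0.59, 0.78 and 1.01 in O4+ replicates 1 to 4, against -0.15, -0.34, 0.13, -0.03 and -0.56 in A2B5+ replicates 1 to 5. Over the 9 oxidation genes it was 0.41, 0.51, 0.33 and 0.44 in O4+ cells, against -0.15, -0.02, -0.19, 0.00 and -0.26 in A2B5+ cells. The synthesis mean minus the oxidation mean was 0.61, 0.08, 0.46 and 0.57 in O4+ cells, against 0.01, -0.32, 0.31, -0.03 and -0.30 in A2B5+ cells, so the groups overlapped through O4+ replicate 2 and A2B5+ replicate 3.

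Single arrays recurred as the extremes of synthesis genes. Of the 7 synthesis genes called higher on array A, 6 had their lowest A2B5+ value in replicate 5 and 6 had their highest O4+ value in replicate 1. Of all 15 synthesis genes on array A, 8 had their lowest A2B5+ value in replicate 5, and the highest O4+ value fell in replicate 1 for 7 and in replicate 4 for 6. The 9 oxidation genes did not follow this order, with O4+ replicate 1 highest for 1 and A2B5+ replicate 5 lowest for 3. Over all 32 members on array A, O4+ replicates 1 to 4 were highest for 8, 9, 6 and 9 genes, and A2B5+ replicate 5 was lowest for 12. These counts were not made over all genes of array A, so no share is given beside them. On array A, A2B5+ replicate 5 also had the lowest mean log2 ratio of oligodendrocyte markers, -1.40 against -1.11 to -0.54 in the other A2B5+ arrays, and of progenitor markers, -0.69 against -0.16 to 0.74. The same array was lowest among A2B5+ arrays for neuron and neuroblast (-0.18) and astrocyte and radial glia markers (-0.07). Whether marker content accounts for part of the spread in synthesis genes was not tested.

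**Figure D3:**
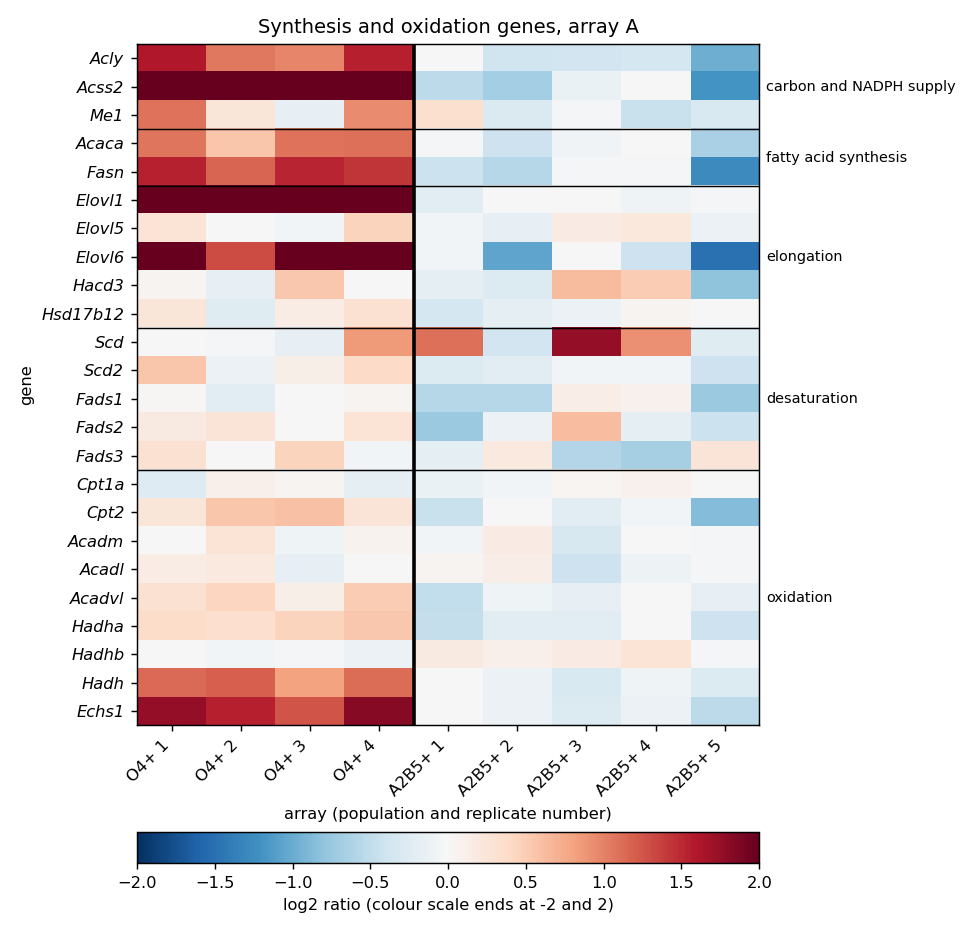
Log2 ratio of the 24 tested synthesis and oxidation genes of array A (rows, grouped by role) on each of 9 arrays, with O4+ replicates 1 to 4 left of A2B5+ replicates 1 to 5 and a colour scale that ends at -2 and 2. Acss2, Elovl1 and Elovl6 are the darkest red rows in O4+ cells, and A2B5+ replicate 5 is the darkest blue column for Acss2, Fasn and Elovl6.

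The windows around the transcription starts are shown for the 6 called synthesis and oxidation genes with the largest differences among the 10 whose promoter was matched by symbol in the RefSeq table (build GRCr8), out of 13 called. Acaca, Fasn and Elovl6 were not matched. Each window runs 5′ to 3′ from 250 bases before to 50 bases after the start, and capitals mark the CCAAT box (CCAAT) and the GC box (GGGCGG) on either strand.
Elovl1 (chr5:137247905-137248204, plus strand): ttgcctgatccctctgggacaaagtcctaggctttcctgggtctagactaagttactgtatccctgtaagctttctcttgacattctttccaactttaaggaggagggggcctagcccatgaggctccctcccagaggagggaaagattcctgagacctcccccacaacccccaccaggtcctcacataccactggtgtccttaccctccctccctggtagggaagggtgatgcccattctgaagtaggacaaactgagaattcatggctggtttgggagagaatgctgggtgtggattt
Acss2 (chr3:164464453-164464752, plus strand): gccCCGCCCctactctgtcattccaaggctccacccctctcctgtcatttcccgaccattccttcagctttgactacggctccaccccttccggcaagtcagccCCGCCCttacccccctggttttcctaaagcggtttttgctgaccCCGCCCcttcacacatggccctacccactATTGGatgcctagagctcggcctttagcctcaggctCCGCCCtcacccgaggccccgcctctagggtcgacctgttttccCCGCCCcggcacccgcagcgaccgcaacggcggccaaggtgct
Hacd1 (chr17:82014543-82014842, minus strand): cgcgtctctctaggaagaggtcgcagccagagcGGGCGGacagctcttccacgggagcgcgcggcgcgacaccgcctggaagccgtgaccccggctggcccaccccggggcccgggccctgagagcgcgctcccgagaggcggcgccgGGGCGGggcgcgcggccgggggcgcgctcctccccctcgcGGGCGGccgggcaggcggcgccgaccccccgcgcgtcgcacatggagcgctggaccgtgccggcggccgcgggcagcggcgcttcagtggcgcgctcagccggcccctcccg
Acly (chr10:85963582-85963881, minus strand): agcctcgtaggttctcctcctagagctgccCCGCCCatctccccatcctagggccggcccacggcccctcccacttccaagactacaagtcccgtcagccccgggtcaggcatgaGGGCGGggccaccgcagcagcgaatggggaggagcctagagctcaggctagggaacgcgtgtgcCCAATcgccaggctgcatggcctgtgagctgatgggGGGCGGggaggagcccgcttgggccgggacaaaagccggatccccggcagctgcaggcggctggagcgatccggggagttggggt
Echs1 (chr1:204333457-204333756, minus strand): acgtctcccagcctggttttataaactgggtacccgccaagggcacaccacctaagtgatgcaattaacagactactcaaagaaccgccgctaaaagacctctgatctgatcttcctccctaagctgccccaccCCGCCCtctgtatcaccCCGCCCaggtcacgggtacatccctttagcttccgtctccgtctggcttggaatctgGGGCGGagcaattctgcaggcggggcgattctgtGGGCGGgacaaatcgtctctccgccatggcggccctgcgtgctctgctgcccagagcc
Hadh (chr2:222504397-222504696, minus strand): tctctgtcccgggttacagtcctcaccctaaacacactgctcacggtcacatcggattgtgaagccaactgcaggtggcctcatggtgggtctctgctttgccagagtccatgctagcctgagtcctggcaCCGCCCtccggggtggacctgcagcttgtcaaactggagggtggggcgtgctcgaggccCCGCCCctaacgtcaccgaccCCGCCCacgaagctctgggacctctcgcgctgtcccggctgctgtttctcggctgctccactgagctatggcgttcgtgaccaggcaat
A CCAAT box lay 71 bases before the start in Acly and 73 in Acss2, and Scd2 had matches at 97 and 54 bases. The match in Hadha lay after the start, at bases 285 to 289 of its window. These letters were thus held by 3 of 5 synthesis genes and 1 of 5 oxidation genes, against 37.5% of all 33469 windows of this length. GC boxes were found in 3 of 5 synthesis genes, with 5 in Acss2, and in 4 of 5 oxidation genes, with 4 in Echs1, against 33.1% of all windows. The letters of a sterol regulatory element (TCACNCCAC), the site of SREBP factors, of a palindromic E-box (CACGTG) and of a direct repeat bound by PPARs (2 copies of AGGTCA with 1 base between them) were found in 0 of these 10 windows, and in 1.12%, 6.42% and 0.0538% of all windows. CCAAT and GC boxes did not overlap each other, and a match describes letters in the window only.

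Of the 5 tested regulators among the 37 genes, Pparg was called higher and Thrsp lower. Srebf1, which encodes SREBP-1, the activator of fatty acid synthesis genes, had ratios of 0.803, 1.25, 0.988 and 0.863 in O4+ cells, against 0.895, 1.14, 1.61, 1.89 and 0.954 in A2B5+ cells. The highest values were those of A2B5+ replicates 3 and 4, and the difference of -0.37 ± 0.24 was not called (adjusted p = 0.24). One of its probe sets fell by 0.66 ± 0.24 (log2, adjusted p = 0.045), while the other differed by -0.08 ± 0.27. Within each array the log2 gap between Fasn and Srebf1 ran from 0.84 to 1.85 in O4+ cells and from -1.21 to -0.27 in A2B5+ cells. Array weights gave Srebf1 a call at -0.72 (adjusted p = 0.019). Its paralogue Srebf2, an activator of cholesterol synthesis genes that is outside the 37 genes and was picked here after its values were seen, rose by 1.31 ± 0.24 (log2, adjusted p = 0.0019).

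Some probe sets of regulators shared 1 course over the arrays. This low-ratio pattern is the median course over the 9 arrays of probe sets whose median ratio was below 1, and since ratios hold no level, whether the signal of such probe sets was low could not be measured. On array A it was 0.30 (log2) higher in O4+ than in A2B5+ arrays, and on array B 0.06 higher. Pparg, the PPAR of adipocytes, was called higher by 0.42 ± 0.14 (adjusted p = 0.028), with ratios of 1.07, 1.25, 1.08 and 1.23 in O4+ cells, against 0.757, 0.740, 0.848, 1.00 and 0.993 in A2B5+ cells. Its only probe set followed the low-ratio pattern with a residual SD of 0.095, and the call ended after centring (0.25, adjusted p = 0.10). The Pparg call also ended without O4+ replicate 2 or 4 or without A2B5+ replicate 1, 2 or 3 (adjusted p from 0.055 to 0.066). The probe set of Ppara, a PPAR that drives oxidation genes in liver, lay below the filter with a residual SD of 0.028 from the pattern. Ppard, the PPAR with the widest expression, differed by 0.06 (95% interval -0.34 to 0.46).

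Thrsp, the Spot 14 protein that promotes lipogenesis in liver and mammary gland, had 2 tested probe sets called in opposite directions. The one away from the low-ratio pattern had ratios of 0.617, 0.511, 0.773 and 0.374 in O4+ cells, against 4.08, 1.00, 1.33, 1.31 and 1.07 in A2B5+ cells, and was lower by 1.45 ± 0.39 (log2, adjusted p = 0.014). A2B5+ replicate 1 stood far above the rest, but all other A2B5+ arrays still lay above all O4+ arrays. The other was higher by 0.36 ± 0.13 (adjusted p = 0.043) and followed the low-ratio pattern with a residual SD of 0.045. The mean of both, -0.54 ± 0.20, was called lower (adjusted p = 0.049), and the call ended in 8 of 9 fits that left out a replicate (adjusted p from 0.037, without A2B5+ replicate 2, to 0.12, without O4+ replicate 4). Lpin1, a phosphatidate phosphatase that also acts as a coactivator, differed by -0.27 ± 0.15 and was called lower after centring (-0.44, adjusted p = 0.031). A probe set of Lpin1 on array B differed by -0.03 ± 0.10.

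**Figure D4:**
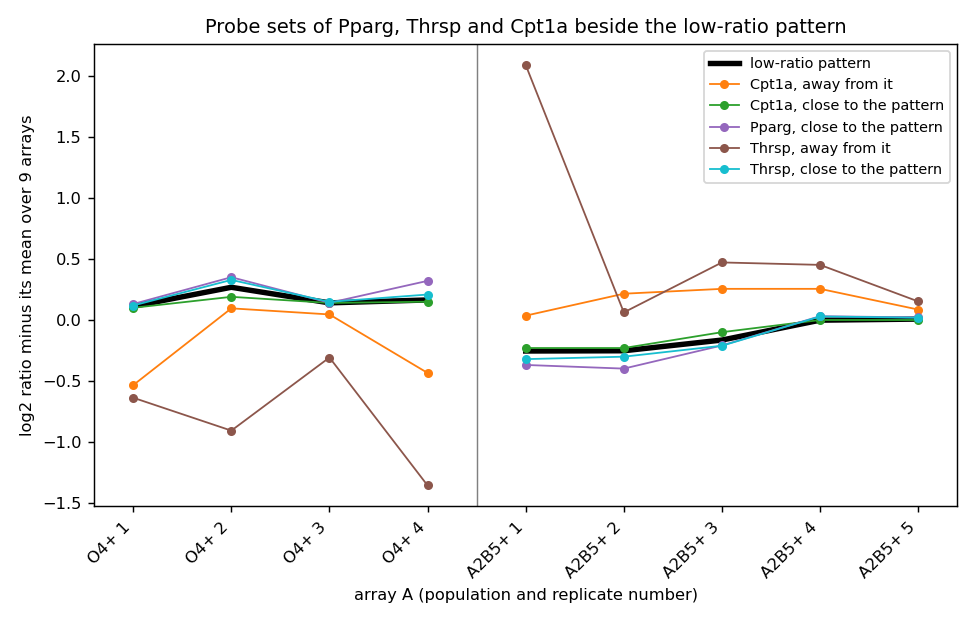
Log2 ratio minus its own mean over the 9 arrays for probe sets of Pparg, Thrsp and Cpt1a on array A, with O4+ replicates left of A2B5+ replicates and the low-ratio pattern as a thick black line. The Pparg probe set and one each of Thrsp and Cpt1a stay close to the pattern (residual SD 0.095, 0.045 and 0.039), while the other Thrsp and Cpt1a probe sets leave it.

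Of the fatty acid carriers, Fabp5, an intracellular binding protein of neural progenitors and skin, rose. Its ratios were 1.25, 1.78, 1.55 and 1.36 in O4+ cells, against 0.965, 0.800, 1.00, 0.963 and 0.774 in A2B5+ cells, without overlap (log2 0.72 ± 0.14, adjusted p = 0.0030). Fabp3, the heart-type binding protein, had O4+ ratios of 1.06, 1.99, 0.915 and 1.00 and A2B5+ ratios of 0.977, 1.13, 0.744, 0.688 and 2.36. A single array was high in each population, O4+ replicate 2 and A2B5+ replicate 5, and the difference of 0.15 had a 95% interval of -0.66 to 0.97.

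Lpl, the lipase that frees fatty acids from lipoproteins, fell in O4+ cells. Its ratios were 0.784, 0.909, 0.337 and 0.732 in O4+ cells, against 1.11, 1.86, 1.00, 1.13 and 1.82 in A2B5+ cells. The groups did not overlap, and the difference was -1.04 ± 0.31 (log2, adjusted p = 0.021). Without A2B5+ replicate 2 it was -0.93 and no longer called (adjusted p = 0.051). O4+ replicate 3, the lowest array for Lpl, also had the lowest mean log2 ratio of microglia markers (-1.35, against -1.24 to 0.06 in the other O4+ arrays) and of endothelial and mural markers on array A (-2.07, against -1.23 to -0.80). It was likewise the lowest O4+ array on array A for cell cycle (-1.95), ependymal (-1.32) and neuron and neuroblast markers (-0.52). For astrocyte and radial glia markers it was lowest by little (-0.79, against -0.78 in replicate 1). The same array was the highest O4+ array for progenitor markers (0.03) and not the lowest for oligodendrocyte markers (4.06, against 3.97 in replicate 2). Over all arrays the 10 microglia markers averaged -0.80 ± 0.65 (SD, n = 4) in O4+ cells and 0.42 ± 0.35 (SD, n = 5) in A2B5+ cells. As ratios hold no zero level, absence of a marker could not be read, and the part of these cells in the Lpl difference was not tested.

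Other genes of the same pathways, taken from lists that the 37 genes do not enter, extended the description. Of 21 tested genes of synthesis and elongation 11 were higher and 4 lower, against 28.8% and 17.8% of all genes, so the share called lower was near the background. The largest rises were Fa2h, which hydroxylates the acyl chains of myelin galactolipids (4.30 ± 0.35), Aacs, which makes acetoacetyl-CoA from ketone bodies in the cytosol (3.93 ± 0.25), the mitochondrial malic enzyme Me3 (2.06 ± 0.30) and the citrate carrier Slc25a1 (1.78 ± 0.15). Aacs had ratios of 14.5, 7.33, 10.4 and 17.3 in O4+ cells, against 1.00, 0.696, 0.647, 0.715 and 0.852 in A2B5+ cells. The largest falls were Elovl2, an elongase of polyunsaturated chains (-1.85 ± 0.46), the mitochondrial acetyl-CoA synthetase Acss1 (-1.09 ± 0.20), Hacd4 (-0.77 ± 0.27) and Cbr4 (-0.72 ± 0.25). Elovl2, on array B, had O4+ ratios of 0.555, 1.00, 0.636 and 0.655 and A2B5+ ratios of 2.12, 1.98, 4.99, 4.91 and 0.952, so A2B5+ replicate 5 lay inside the O4+ range. The 10 astrocyte and radial glia markers averaged -0.64 ± 0.22 (SD, n = 4) in O4+ cells and 0.43 ± 0.36 (SD, n = 5) in A2B5+ cells, and A2B5+ replicate 5 was the lowest of its group in these as well, at -0.07. On array A it was also the lowest A2B5+ array for neuron and neuroblast (-0.18), oligodendrocyte progenitor (-0.69) and oligodendrocyte markers (-1.40). It was not the lowest on array A for microglia, endothelial and mural, ependymal or cell cycle markers. On array B, where Elovl2 was read, A2B5+ replicate 5 was lowest for 2 endothelial and mural markers (0.00, against 0.66 to 1.33). It was also lowest there for 1 neuron and neuroblast marker (-1.11), but not for oligodendrocyte, ependymal or cell cycle markers. The part of any of these cell types in the Elovl2 difference was not tested.

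Of 22 other oxidation genes 9 were higher and 0 lower, against 28.8% and 17.8% of all genes. After centring 4 of 22 were higher and 1 lower, against 18.7% and 20.4% of all genes, so the share called higher was at the background. The largest rises were Auh, a hydratase of leucine breakdown (1.67 ± 0.15), Cpt1c, a neuronal relative of Cpt1a in the endoplasmic reticulum (1.03 ± 0.29), the dehydrogenase Hsd17b10 (0.89 ± 0.11) and the thioesterase Acot13 (0.68 ± 0.19). Of 32 genes of regulation, uptake and glycerolipid synthesis, 12 rose and 4 fell, and centring gave 7 and 5, near the same background shares. Agpat4 and Dgat2, acyltransferases of phosphatidate and triglyceride synthesis, rose by 3.73 ± 0.20 and 3.47 ± 0.20, Insig1, a sterol-dependent brake on SREBP, by 2.37 ± 0.22 and the retinoid receptor Rxrg by 2.16 ± 0.32. The fatty acid transporter Slc27a1 fell by 1.25 ± 0.22, the coactivator Ppargc1a by 1.12 ± 0.16, the mitochondrial carrier Ucp2 by 0.94 ± 0.16 and Lpin2 by 0.76 ± 0.13, all on the log2 scale. Without its probe set at the low-ratio pattern Lpin2 differed by -1.58.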

How the data were processed

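Each value is a linear ratio, as the authors deposited it. Per the submitters' processing notes GCRMA was used (no version given), and the sources used here do not say how its output became ratios. In 12995 of the 15923 array A probe sets, and in 11050 of the 15333 of array B, the 9 ratios had a median of exactly 1, and in 0 was it above 1. Division by the median, or by a fixed minimum where that is low, would give such values, but no source records it. Ratios were put on the log2 scale with no offset and no added normalization. Non-control probe sets with 1 symbol (GEO's platform annotation, symbols checked through gene identifiers) and a ratio of at least 1 on at least 4 of 9 arrays were averaged per gene, array B being used where array A had none. This gave 9045 and 2937 genes, and for the set described 45 of 54 probe sets.

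O4+ and A2B5+ cells, grouped by sample title, were compared by a two-sided test in limma 3.58.1 (lmFit, eBayes; R 4.3.3), with Benjamini-Hochberg adjustment over all genes, and per array type for probe sets. The fit was tested on simulated data. Array number limits the precision, and p-values set each difference against the spread between replicates, which eBayes moderates over all genes. Whether O4+ and A2B5+ replicates shared litters was not settled. Members, lists and tests were chosen with earlier results of these data known. All listed genes are accounted for, and from the other pathway lists the called genes with the largest differences were named, at most 4 in each direction. Same-numbered O4+ and A2B5+ arrays did not deviate together throughout (r = 0.020, 0.305, 0.265 and 0.175 for numbers 1 to 4 on array A), so numbers were not taken as pairs. Alternatives were centred arrays, other filters and probe set rules, array weights, a replicate block and leaving out each replicate. Leaving out probe sets with a residual SD under 0.1 from the low-ratio pattern was chosen after seeing the data.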

Additional observations from a re-analysis of the deposited data

Results flagged for a closer look

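Among 66 groups of O4+ or A2B5+ arrays, 3 held an array whose gap to its nearest neighbour took up most of the group's range by Dixon's criterion at the 95% level, where chance gives about 1 in 20. Acaca had a log2 ratio of 0.56 in O4+ replicate 2, against 1.07 to 1.10 in the other O4+ arrays. Scd had 0.85 in O4+ replicate 4, against -0.16 to 0.00. Ppard had 0.58 in O4+ replicate 3, against -0.04 to 0.00. Acaca was called in all 9 fits that left out a replicate, with log2 differences from 1.08 to 1.32, and Scd and Ppard were called in none of them (adjusted p from 0.19 to 0.73 and from 0.50 to 0.98).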

How the results depend on the processing

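Of 17 called genes, 12 kept their call and direction under every alternative that could be computed for them, and 13 did so in all 9 fits that left out a replicate. Centring the arrays moved the count of all genes called higher from 3445 to 2241, the count of oxidation genes called lower from 0 to 1 and the oxidation median from 0.52 to 0.35. Averaging probe sets of both array types gave an oxidation median of 0.42. Differences of uncalled genes changed sign with centring for Elovl5 (-0.01), Hacd3 (-0.04), Acadm (-0.06), Acadl (-0.05), Ppard (-0.11) and Fabp3 (-0.02), and with array weights (-0.12) and the replicate block (-0.06) for Hacd3. Across the fits without 1 replicate, all genes called ran from 4496 to 5686, those higher from 2714 to 3622 and those lower from 1775 to 2091. Synthesis genes called higher ran from 7 to 8 and the synthesis median from 0.42 to 0.69, while 5 oxidation genes were higher throughout and their median ran from 0.44 to 0.59. Differences spanned 0 for Hacd3 (-0.06 to 0.30), Cpt1a (-0.12 to 0.00), Ppard (-0.09 to 0.15) and Fabp3 (-0.10 to 0.44). With the replicate number as a block, the calls of Scd2 (0.38, adjusted p = 0.099) and Thrsp (-0.58, adjusted p = 0.056) ended, and no other call of the 33 genes changed. Same-numbered arrays of both populations correlated at 0.237, -0.132, 0.070 and -0.198 on array B, and at -0.023, 0.203, 0.229 and 0.149 when O4+ arrays of array B took the number of the array A replicate they correlated with best. The block used the deposited numbers. Number 5 occurs in A2B5+ cells only, so differences in the block fit did not draw on A2B5+ replicate 5. Without a filter Thrsp was not called (-0.27, adjusted p = 0.13), and with the most variable probe set per gene Me1 (0.93) and Srebf1 (-0.66) were called and Scd2 (0.39) was not. Leaving out probe sets at the low-ratio pattern removed Pparg, and the other 32 genes kept their side of the threshold. The cause of these changes was not tested.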

Other observations

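The numbers of O4+ arrays did not match across the 2 array types. Over 100 shared probe sets, deviations of O4+ replicate 2 on array A from the group mean correlated at -0.800 with O4+ replicate 2 on array B and at 0.937 with O4+ replicate 4 on array B, while A2B5+ replicates 1 to 5 correlated at 0.816, 0.838, 0.887, 0.778 and 0.885 with the array of the same number. Elovl6, read on both types, was lowest among O4+ arrays in replicate 2 on array A (ratio 2.48) and in replicate 4 on array B (ratio 2.21). Hacd1, read on array B alone, was also lowest there in O4+ replicate 4. The main contrast of O4+ with A2B5+ cells does not use the numbers. The replicate block does, and averaging probe sets of both array types joined arrays by number. For a gene read on both types, the standard error and adjusted p of that average thus rest on O4+ arrays that may not match.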
